A study of Mus musculus with 16 samples.

Results

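The comparison described here asks which genes of the tau cortex differed when both copies of Trem2 were lost. P301S+ TREM2-/- mice (here the knockouts, 4 mice) were set against P301S+ TREM2+/+ mice (here the tau wild types, 4 mice), and every gene with a mean of at least 1 RPKM over these 8 libraries entered the fit. RPKM counts reads for each kilobase of a gene and each 1000000 reads of the library (M below). That filter kept 11980 of the 24060 genes listed, and the 8 libraries are 8 of the 16 in the study. All mice were 8 to 9 months old, of the strain given as C57BL/6; C3, and each genotype held 2 females and 2 males. Both groups carried P301S, a tau mutation that causes inherited tauopathy in people, so that the groups differed by label in Trem2 alone. The heterozygotes (P301S+ TREM2+/-, 4 mice) and the mice without the transgene and with both Trem2 copies (TREM2+/+, here the controls, 4 mice) are shown as levels only. Each library was labelled with a mouse number of its own. The labels do not give the promoter of the transgene, the part of Trem2 that was deleted, a litter or a batch. Mouse numbers run in blocks by genotype, so a batch in that order and genotype cannot be told apart.

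Trem2 is a surface receptor of microglia (brain macrophages) that binds lipids, lipoproteins such as those carrying Apoe, and debris. It has no signalling motif of its own and acts through the adapter Tyrobp, whose phosphorylation recruits the kinase Syk and drives phagocytosis, survival and lipid handling. Around amyloid, degenerating neurons and damaged myelin, microglia change from a homeostatic state, marked by genes such as P2ry12, Tmem119 and Gpr34, to a disease-associated state marked by Apoe, Tyrobp, Cst7, Clec7a and other genes. Trem2 is known as the receptor needed for the full change. Transcription of microglial genes depends on the factor PU.1, which recognises a purine-rich site around GAGGAA.

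The promoters of Trem2 and of Clec7a are shown because the first belongs to the lost receptor and the second to the disease-associated gene with the clearest separation of the groups below. Both come from RefSeq on GRCm38.p6 and span the transcription start. That of Trem2 lies at chr17:48346151-48346450 on the plus strand and that of Clec7a at chr6:129472730-129473029 on the minus strand. Capitals mark GAGGAA or its reverse complement TTCCTC.
Trem2: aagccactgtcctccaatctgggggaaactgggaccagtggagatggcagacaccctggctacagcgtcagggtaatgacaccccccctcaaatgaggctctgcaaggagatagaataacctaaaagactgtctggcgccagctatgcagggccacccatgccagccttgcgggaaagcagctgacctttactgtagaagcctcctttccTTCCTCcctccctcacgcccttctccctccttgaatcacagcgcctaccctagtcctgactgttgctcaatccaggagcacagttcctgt
Clec7a: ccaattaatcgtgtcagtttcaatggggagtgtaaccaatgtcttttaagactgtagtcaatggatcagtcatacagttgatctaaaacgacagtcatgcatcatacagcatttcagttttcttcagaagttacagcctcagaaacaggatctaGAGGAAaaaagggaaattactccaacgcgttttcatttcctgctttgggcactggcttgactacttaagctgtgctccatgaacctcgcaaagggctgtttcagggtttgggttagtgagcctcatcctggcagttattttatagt
The longer PU.1 core GAGGAAGT was in neither promoter on either strand, and 3.2% of all 32851 promoters in the table held it. The 6-letter GAGGAA, which is contained in it and was looked for only after the longer form gave no match, was in 28.3% of all promoters. Of the 12 genes with the smallest p in each direction named below, 12 of 24 had a promoter entry. None of these 12 held GAGGAAGT, and the E-box CACGTG was in 3 of them (Tnfrsf21, Mcf2 and Sgta) against 7.15% of all promoters.

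The 8 libraries did not separate first by genotype. Both female tau wild types lay at 49.8 and 43.6 on principal component 1 (50.6% of the variance) and the other 6 libraries between -23.8 and -7.4. Component 2 (14.5%) set male tau wild type replicate 3 apart, at 36.3. Depth was 5.94 ± 2.68 M reads in the knockouts and 8.01 ± 3.26 in the tau wild types (SD, n = 4 each, two-sided exact permutation p = 0.4, where 0.0286 is the smallest possible). Knockout replicate 2 had the fewest, 2.55 M reads. All 18 excitatory neuron, 16 astrocyte and 19 oligodendrocyte genes looked for in the labelled cortical tissue passed the filter. Because the female tau wild types stood apart, differences in each sex are also given for part of the genes and lists. Where a single difference is given, it is that of the 8 libraries together and can rest on both female tau wild types. Leaving out both female tau wild types leaves the same fitted differences as the males alone.

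Trem2 fell in the knockouts (chromosome 17, 48346401 to 48354147, GRCm38, plus strand). Its level was 1.44, 1.71, 1.46 and 3.75 RPKM in knockout replicates 1 to 4, from 5 to 29 reads, and 34.0, 30.1, 29.6 and 14.3 in the tau wild types. Every knockout lay below every tau wild type, and the highest knockout, replicate 4, was a male. The log2 difference was -3.17 (SE 0.30, 9.02-fold lower, limma adjusted p = 0.00967), with -3.68 in females and -2.66 in males. Here and below log2 differences are those of log2(RPKM + 1), so that changes of low genes come out too small. Heterozygotes were at 4.5, 8.37, 25.2 and 13.6 RPKM and controls at 10.01, 12.1, 20.2 and 7.35. Reads come from the 3' end of transcripts, so that reads from an undeleted end of the gene would still be counted in knockouts. Leaving out 1 library at a time gave log2 differences from -3.48 to -3.04, and 5 of these 8 fits (without tau wild type replicate 1, 2 or 3, or knockout replicate 1 or 3) missed the threshold, with adjusted p from 0.0521 to 0.0799. In males alone the adjusted p was 0.258.

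Beside Trem2, 4 genes fell and 2 rose at an adjusted p under 0.05. Most of these calls rest on all 8 libraries: with 1 library left out C1qtnf4, Map1lc3a and Rps2 missed the threshold in all 8 fits, Usp5 (except without knockout replicate 4) and Rps18 (except without knockout replicate 2) in 7, and Flywch1 in 5 (all but those without tau wild type replicate 4 or knockout replicate 2 or 4), with limma adjusted p from 0.0364 to 0.221 over the 6 genes. In the fit of all 16 libraries none of the 6 passed. The 5 lower calls are 0.0417% of the genes tested and the 2 higher calls 0.0167%. In all 7 the groups did not overlap, which by itself gives the same sign in both sexes. At an unadjusted p under 0.05 stood 1323 genes higher, which is 11.0% of those tested, and 1070 lower, which is 8.93%. All 4 knockouts lay above all 4 tau wild types in 2.88% of genes and below them in 4.78%. The median log2 difference over all genes tested was -0.02.

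Flywch1, a zinc finger gene, fell (chromosome 17, 23752793 to 23771602). Knockouts held 9.84, 7.96, 9.81 and 9.27 RPKM and tau wild types 31.4, 33.3, 23.9 and 23.4, with 38.4, 38.2, 27.4 and 22.4 in heterozygotes. The log2 difference was -1.49 (SE 0.14, limma adjusted p = 0.00967). The knockouts lay within a narrow range that the tau wild types and heterozygotes did not reach. Controls were at 12.3, 14.2, 47.5 and 9.26 RPKM, so that 3 of the 4 mice with both Trem2 copies and no transgene stood near the knockouts.

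C1qtnf4, a secreted protein of the C1q and tumour necrosis factor family, fell (chromosome 2, 90885860 to 90890525). It was at 9.92, 7.17, 12.7 and 10.4 RPKM in knockouts and 45.6, 56.5, 30.7 and 27.1 in tau wild types (log2 difference -1.85, SE 0.24, limma adjusted p = 0.0368). Controls stood at 14.5, 18.5, 124 and 10.5, again with 3 near the knockouts and replicate 3 far above them, and heterozygotes at 34.0, 46.0, 25.5 and 26.9. The female tau wild types were above the male ones, and the difference in females (-2.46) exceeded that in males (-1.25) in the test between the sexes (adjusted p = 0.0493).

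Usp5 and Map1lc3a, of ubiquitin recycling and autophagy, fell. Usp5 takes apart free ubiquitin chains (chromosome 6, 124815019 to 124829484), and it was at 35.0, 33.8, 22.3 and 26.9 RPKM in knockouts and 90.7, 85.3, 42.9 and 45.9 in tau wild types (log2 difference -1.08, SE 0.14, limma adjusted p = 0.0367). Both female tau wild types stood far above the males here, and heterozygotes (45.0, 38.5, 42.2 and 35.1) and controls (28.7, 31.9, 30.5 and 40.5) did not reach them. Map1lc3a encodes an LC3 protein that coats the autophagosome (chromosome 2, 155276297 to 155278073). It was at 178, 162, 199 and 220.0 RPKM in knockouts, 399.6, 464, 365 and 362 in tau wild types, 345, 316, 329.6 and 256 in heterozygotes and 305, 203, 724 and 217 in controls (log2 difference -1.07, SE 0.14, limma adjusted p = 0.0368). Knockouts lay below every tau wild type and heterozygote.

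The 2 genes that rose, Rps2 and Rps18, encode proteins of the small ribosomal subunit. Rps2 (chromosome 17, 24718116 to 24721929) was at 106, 116, 139 and 134 RPKM in knockouts and 62.2, 57.7, 50.7 and 53.7 in tau wild types (log2 difference 1.12, SE 0.13, limma adjusted p = 0.0259). The 4 heterozygotes split between these levels, at 127, 57.0, 65.2 and 132, and the controls were at 128, 52.8, 1.15 and 115. Rps18 (chromosome 17, 33951999 to 33956001) was at 110.3, 85.2, 127 and 113 RPKM in knockouts and 47.5, 51.3, 57.5 and 56.9 in tau wild types (log2 difference 1.01, SE 0.12, limma adjusted p = 0.0259). Heterozygotes split here too, at 109, 111, 57.7 and 63.3, but into other pairs, while controls were at 52.3, 37.5, 2.19 and 44.3. Ribosomal protein genes have many near-identical copies in the genome, so that their counts are uncertain.

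In all 5 lower genes both female tau wild types were above the other 6 libraries, as in 1785 of all 11980 genes tested. Control replicate 3, a library outside this comparison, was above the other controls in 4 of the 5 (all but Usp5) and below them in Rps2 and Rps18. Over all genes tested it was above them in 33.4% and below them in 53.8%. Whether a property that these libraries share has a part in the calls was not tested. In males alone the log2 differences of the 7 genes were from -2.66 to 1.37, and none passed the threshold. Their signs there were given by the lack of overlap. There 547 of 12045 genes (4.54%) had an unadjusted p under 0.05. Without both female tau wild types no gene passed either, and 479 of 11988 (4.0%) had an unadjusted p under 0.05. In females alone 1131 genes passed higher and 409 lower.

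**Figure D1:**
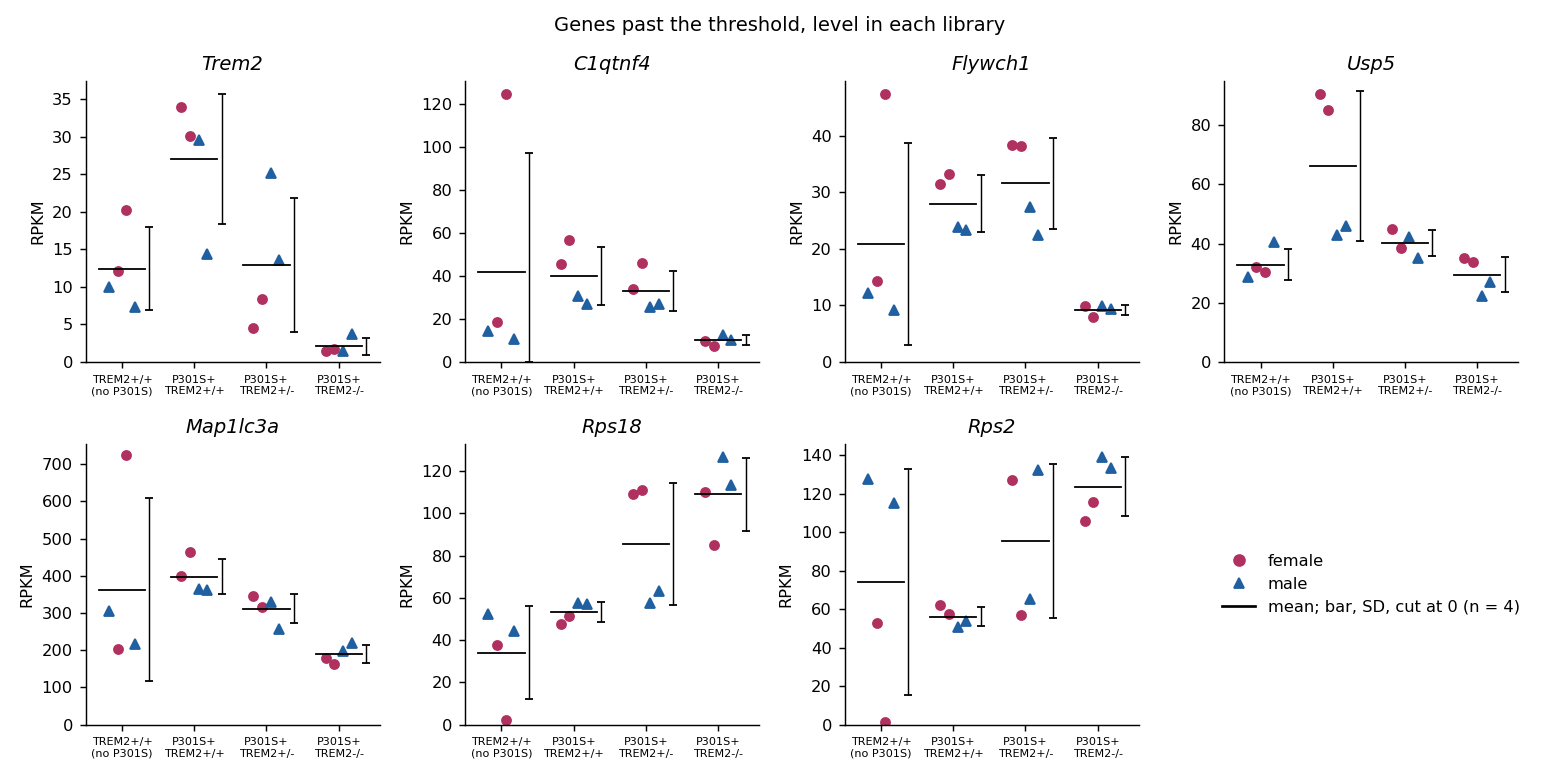
Level of each gene past the threshold, in RPKM, for the 4 libraries of each genotype (circles, females; triangles, males; line, mean; bar, SD, cut at 0). Knockouts and tau wild types do not overlap in any panel, heterozygotes form 2 levels in Rps2 and Rps18, and control replicate 3 is the far point among the controls of C1qtnf4, Flywch1 and Map1lc3a.

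Outside the threshold, up to an adjusted p of 0.172, stood 199 lower and 149 higher genes whose groups did not overlap. The 7 lower ones with the smallest p had log2 differences from -1.04 to -0.76 (limma adjusted p from 0.077 to 0.172). They include Enho, which encodes the secreted peptide adropin, at 32.3, 30.5, 37.3 and 37.2 RPKM in knockouts and 62.5, 57.3, 60.3 and 56.0 in tau wild types. The co-chaperone Sgta was at 57.5, 54.9, 40.4 and 51.2 and 126, 110.5, 71.8 and 74.0, and Nsmf, a synapse-to-nucleus messenger, at 51.5, 52.1, 59.0 and 55.6 and 108, 113, 89.9 and 80.7. In each of these the knockouts held a narrow range below both sexes of tau wild types. Ly6a, an endothelial surface antigen (-0.80), Bsg, a chaperone of lactate transporters (-0.76), the reticulophagy gene family member Fam134c (-0.81) and 2810428I15Rik (-1.04) are the rest of these 7. In males alone the 7 differences were from -0.87 to -0.56, a sign given by the choice of genes without overlap.

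The 10 higher ones with the smallest p had log2 differences from 0.73 to 1.55 (limma adjusted p from 0.0896 to 0.172). Rhob, a small GTPase of endosome traffic, was at 178, 149.7, 177 and 177 RPKM in knockouts and 79.1, 91.9, 97.3 and 129.5 in tau wild types. The sphingolipid transporter gene Spns2 was at 11.6, 10.6, 11.2 and 11.2 and 5.11, 5.01, 7.41 and 6.84. Epb4.1l2, of the membrane skeleton, was at 153, 162, 168 and 183 and 59.3, 69.5, 129 and 127, where the male tau wild types stood between the females and the knockouts. AF357355 (1.55), the long non-coding RNA Miat (0.78), the DNA repair gene Paxip1 (0.73), the exchange factor Mcf2 (0.75) and the splicing kinase Clk1 (0.88) were also among these 10, with Oard1 and Tnfrsf21 described next. In males alone the 10 differences were from 0.45 to 1.39, with the sign again given by that choice.

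Of the 6 called genes other than Trem2, 3 (Flywch1, Rps2 and Rps18) lie on chromosome 17, which holds Trem2. After this was seen, genes were tabulated by chromosome. On chromosome 17, 12 of 537 tested genes, Trem2 among them, had an unadjusted p under 0.001 (2.24%), against 37 of 11382 on all others (0.325%, and from 0 to 0.885% on each of the other 19). At an unadjusted p under 0.05 the shares were 22.9 and 19.8%. The nearest tested gene was Oard1, an ADP-ribose hydrolase 0.06 Mb from Trem2, at 18.7, 18.2, 22.3 and 16.3 RPKM in knockouts and 6.89, 9.46, 8.85 and 11.2 in tau wild types (log2 difference 0.99, SE 0.16, limma adjusted p = 0.107). Its heterozygotes, at 14.9, 15.2, 15.3 and 18.5, lay above all tau wild types, 3 of them below every knockout, and the controls were at 12.1, 10.8, 6.05 and 8.31. Its difference was 1.10 in females and 0.87 in males.

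Apart from Trem2 and Oard1, the genes of the 12 all lay on the opposite side of Trem2, up to 24.57 Mb away. Tnfrsf21, a death receptor of neurons and oligodendrocyte lineage cells, lay 5.26 Mb away and was at 21.6, 22.7, 20.8 and 22.1 RPKM in knockouts and 7.97, 6.06, 12.9 and 16.3 in tau wild types (log2 difference 1.04). The nucleotide hydrolase Enpp4 was at -0.61 and the cilium gene Rsph1 at -0.89. H2-Ke6, an enzyme gene of fatty acid synthesis in the major histocompatibility region (-0.56), the immunoproteasome subunit Psmb8 (-0.96) and the class II genes H2-Ab1 and H2-Aa stood 14.06 to 14.32 Mb away. Rps18 lay at 14.39 Mb, Rps2 at 23.62 and Flywch1 at 24.57. Of the 61 other tested genes within 5 Mb of Trem2 none passed, and 17 (27.9%) had an unadjusted p under 0.05. An engineered allele can bring donor-strain sequence with it, and whether the 2 groups differ in such sequence was not tested.

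**Figure D2:**
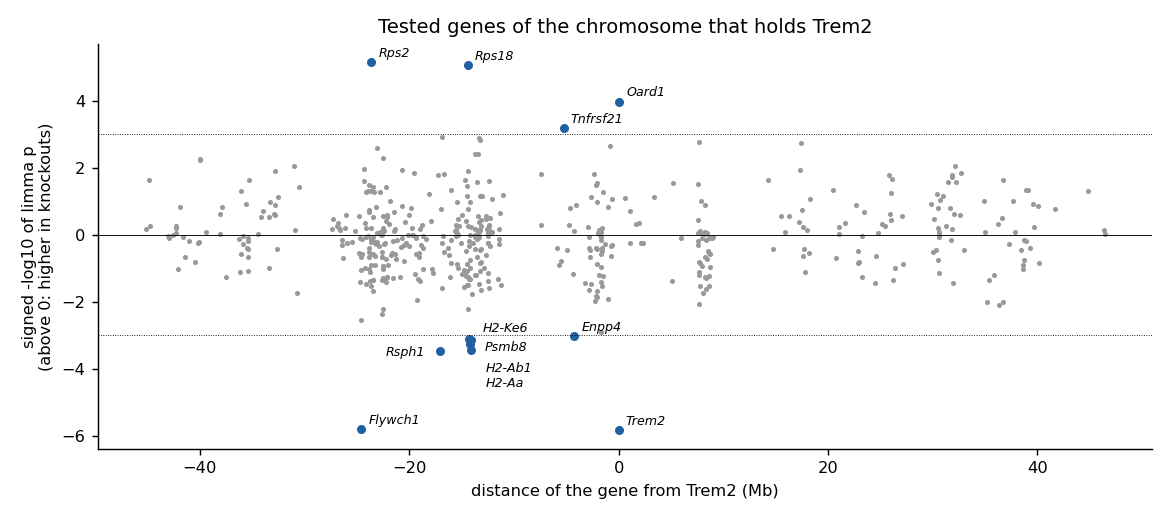
Each point is a tested gene of chromosome 17, placed by its distance from Trem2 in Mb, with the -log10 of limma's unadjusted p as height, above 0 where knockouts were higher and below 0 where they were lower. The 12 genes past the dotted lines (p of 0.001) are named, and the 11 besides Trem2 lie from 24.57 Mb before Trem2 to 0.06 Mb after it.

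None of the 388 tested genes of the 30 lists chosen for brain cell types and Trem2 biology passed the threshold. At an unadjusted p under 0.05, 59 of them were lower (15.2%, against 8.93% of all genes) and 31 higher (7.99%, against 11.0%). Of all genes tested 53.2% had a negative difference, against which the counts of lower members are to be read. In bulk tissue, fewer cells of a type and less RNA per cell cannot be told apart, which holds for every list below. A comparison of heterozygotes with tau wild types would use the same tau wild type libraries, so heterozygotes are given as levels.

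Trem2's own signalling partners were lower at the adapter and mixed beyond it. Tyrobp was at 29.7, 22.1, 44.3 and 72.3 RPKM in knockouts and 117, 83.7, 83.5 and 49.8 in tau wild types, with 24.1, 46.3, 118 and 107 in heterozygotes and 31.9, 29.1, 14.5 and 27.7 in controls. The groups overlapped, because male knockout replicate 4 stood above male tau wild type replicate 4. The log2 difference was -1.05 (SE 0.35, limma adjusted p = 0.178), with -1.91 in females and -0.19 in males. The inhibitory phosphatase Ptpn6, at -0.67, was the other of 2 among 13 tested members with an unadjusted p under 0.05, and the list had a median of -0.11.

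Disease-associated microglia genes of the first stage, known from amyloid models as the step that does not need Trem2, had 7 of 9 members lower, 4 of them at an unadjusted p under 0.05, and a median of -0.16. Apoe, a lipoprotein that astrocytes and activated microglia secrete, was at 420.3, 541, 509 and 781 RPKM in knockouts and 1142, 991, 1034 and 706 in tau wild types (log2 difference -0.80, SE 0.21, limma adjusted p = 0.172). Knockout replicate 4 again reached into the range of the tau wild types. The protease Ctsd was at -0.74, with -1.275 in females and -0.20 in males. The lysozyme Lyz2 was at -1.18, with -2.01 in females and -0.34 in males.

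Among the 17 tested genes of the second stage, the part of the program tied to Trem2, 12 were lower, 5 of them at an unadjusted p under 0.05, and 2 were higher at that p. The median was -0.29 (females -0.18, males -0.11), and 3 members differed between the sexes past the threshold. Clec7a, a receptor for fungal glucans, was at 0.161, 0.172, 0.342 and 1.24 RPKM in knockouts and 5.24, 2.16, 2.08 and 1.98 in tau wild types. Its heterozygotes ranged more widely, at 0.0419, 1.04, 10.5 and 7.39, and controls were at 0.118, 0.212, 0.168 and 0.0739. The groups did not overlap, and knockout replicates 1 to 3 were near the controls (log2 difference -1.37, SE 0.31, limma adjusted p = 0.172, from 1 to 19 reads in the knockouts).

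Cd52, a small surface glycoprotein of leukocytes, showed the same separation, at 4.36, 4.67, 7.53 and 9.13 RPKM in knockouts and 36.0, 16.8, 24.3 and 10.5 in tau wild types (log2 difference -1.55, limma adjusted p = 0.172). Females differed by -2.22 and males by -0.88. Cst7, a cathepsin inhibitor, did not separate. It was at 0.185, 0.397, 2.15 and 9.47 RPKM in knockouts and 16.9, 10.9, 7.59 and 3.44 in tau wild types, with male knockout replicate 4 above both male tau wild types. The difference was -3.51 in females and -0.11 in males, and these differed from each other (log2 -3.40, limma adjusted p = 0.0346). The cysteine protease Ctsz was at -0.97 and the phagocytic receptor Axl at -0.60. The 2 members higher at an unadjusted p under 0.05 were Csf1, at 0.88 (1.71 in females, 0.04 in males), and Ank, at 0.34.

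Homeostatic genes did not share 1 direction. Of 14 tested, 3 were higher at an unadjusted p under 0.05 and none lower, although 10 of the 14 had a negative sign and the median was -0.10. It was -0.27 in females, with 10 lower, and 0.18 in males, with 3 lower. Gpr34, a receptor for lysophosphatidylserine, was at 5.59, 8.05, 5.52 and 5.39 RPKM in knockouts and 4.7, 2.81, 3.22 and 4.49 in tau wild types, without overlap (log2 difference 0.58, limma adjusted p = 0.175). P2ry12, the nucleotide receptor that guides microglial processes, was at 0.32 and the adhesion ligand Selplg at 0.35, with both positive in each sex. Among the 10 with a negative sign, Olfml3 was at -1.39 in females and 0.05 in males, and Tmem119 at -1.07 and 0.055.

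Markers that microglia carry in every state had a negative median in females and one near 0 in males. Of 22 pan-microglia and macrophage genes 16 were lower, 5 of them at an unadjusted p under 0.05. The other 6 were higher, 2 of them at that p (Lgmn and Ly86). The median was -0.32, with -0.73 in females and 0.06 in males. Ly86 was at 0.48, with 0.30 in females and 0.65 in males. Laptm5, a lysosomal membrane protein of leukocytes, was at 9.69, 11.3, 11.1 and 17.2 RPKM in knockouts and 32.6, 30.9, 16.4 and 18.3 in tau wild types. The immune receptor adapter Fcer1g was at 13.3, 14.9, 17.4 and 29.9 and 63.0, 42.8, 27.8 and 24.2, and its difference was larger in females (-1.81) than in males (-0.17, adjusted p of the difference between the sexes 0.0423). The endopeptidase Lgmn went the other way, at 1.88 in females and 0.01 in males (adjusted p = 0.011), with tau wild types at 5.83, 5.76, 24.1 and 31.1 RPKM. The difference between the sexes was tested gene by gene and not for the list. The summed level of the list was 350.3 to 787 RPKM in knockouts and 529 to 831 in tau wild types.

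Complement genes had a negative median in females and one near 0 in males, and none differed between the sexes past the threshold. The list had 10 of 11 tested genes lower, 2 at an unadjusted p under 0.05, and a median of -0.34 (females -0.52, males 0.02). C1qb, which starts the classical pathway as part of C1q, was at -1.08 (-1.90 in females, -0.26 in males). Cd59a, which blocks the terminal complex, was at -0.64, with the larger value in males (-1.07, -0.20 in females).

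Lysosome genes were negative in 31 of 36 in females and in 23 in males, where the median over all genes was -0.04 and -0.01. The list had 32 lower, 14 of them at an unadjusted p under 0.05, and the median was -0.35 (females -0.65, males -0.09). In 3 of the 36 every knockout lay below every tau wild type, against 4.78% of all genes tested. These were the cathepsin Ctsh at 3.49, 5.55, 7.62 and 5.66 against 9.39, 14.8, 13.2 and 8.17 RPKM, the proton pump subunit Tcirg1 (-0.69) and the glucuronidase Gusb (-0.56). Without overlap a negative sign in males was given, and the male differences were -0.59, -0.57 and -0.29.

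Antigen presentation genes had a negative median in both sexes, with members that differed between them. Of 13 tested genes 10 were lower, 6 at an unadjusted p under 0.05, and the median was -0.36 with -0.43 in each sex. In females 9 were negative and in males 12. The immunoproteasome subunit Psmb9 was at 0.61 in females and -0.61 in males, a difference past the threshold (adjusted p = 0.0479). H2-Aa, a chain of the class II molecule, was at 4.11, 1.1, 2.5 and 2.5 RPKM in knockouts and 26.4, 7.54, 9.95 and 8.19 in tau wild types (log2 difference -1.87, SE 0.38, limma adjusted p = 0.172). Its partner chain H2-Ab1 was at 0.613, 0.985, 0.653 and 0.497 and 8.2, 3.89, 2.64 and 1.65 (-1.44, adjusted p = 0.172). Heterozygotes were at 1.16, 5.31, 10.3 and 11.6 RPKM for H2-Aa and 0.40, 1.47, 2.61 and 2.14 for H2-Ab1. Psmb8 (-0.96) and the peptide loader Tapbp (-0.49) also had groups that did not overlap, where 4.78% of all genes tested had every knockout below. All 4 lie on chromosome 17, as do 11 of the 13 tested members, and H2 genes have near-identical copies, so that list membership and chromosome cannot be told apart here.

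**Figure D3:**
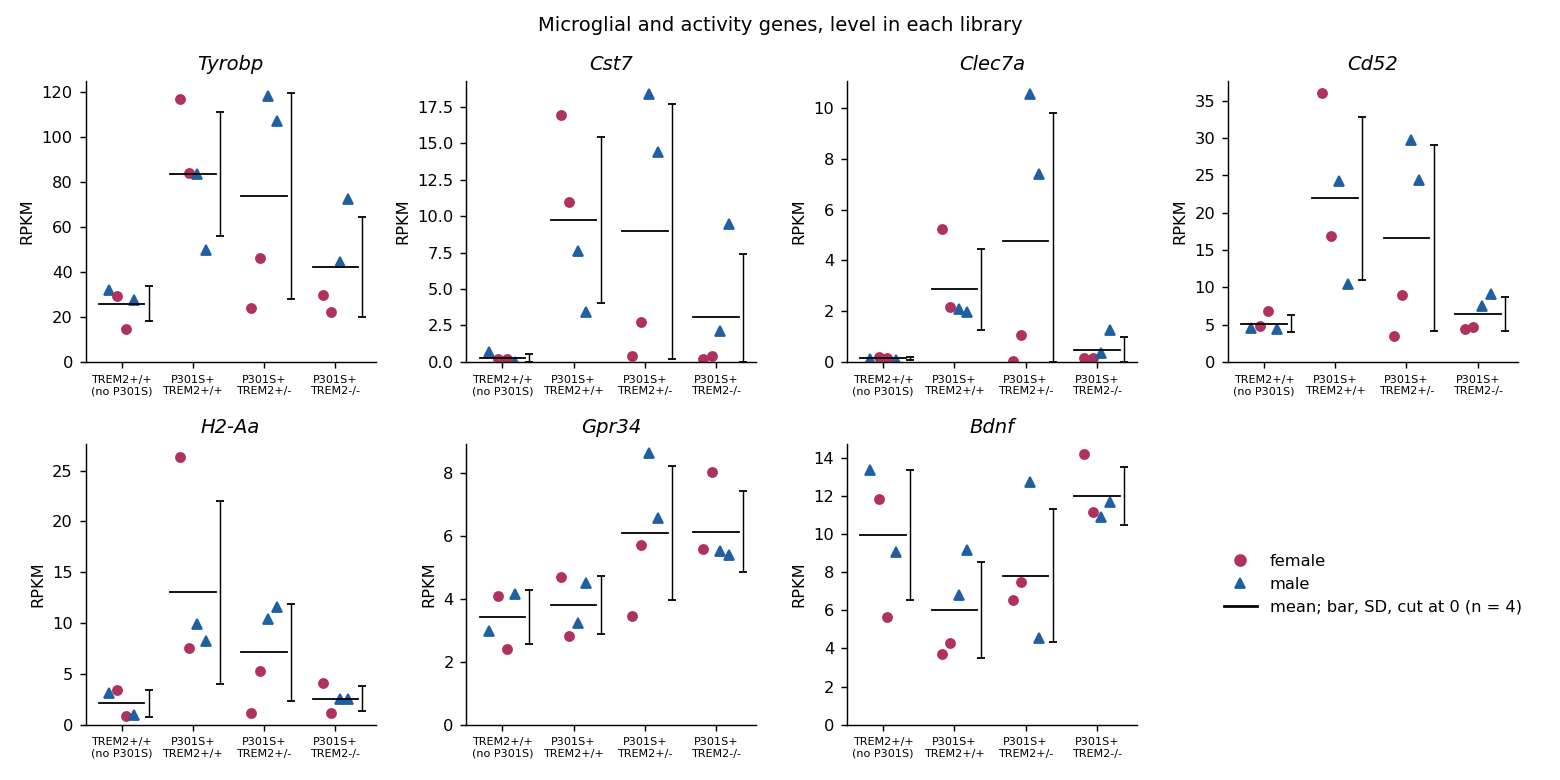
Level in RPKM of 7 genes in the 4 libraries of each genotype (circles, females; triangles, males; line, mean; bar, SD, cut at 0). Clec7a, Cd52, H2-Aa, Gpr34 and Bdnf do not overlap between knockouts and tau wild types, whereas Tyrobp and Cst7 overlap through male knockout replicate 4.

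Genes of uptake and lipid handling were mixed. Among 13 phagocytosis genes the engulfment adapter Elmo1 was at 27.5, 31.1, 34.2 and 27.3 RPKM in knockouts and 12.5, 11.9, 23.4 and 25.2 in tau wild types. Its difference was 0.76, with 1.19 in females and 0.32 in males. The Axl ligand Gas6 was at 0.80, with 1.46 in females and 0.14 in males. The list had a median of -0.08. Of 18 lipid transport and storage genes 13 were lower (median -0.25). The cholesterol exporter Abcg1 was at 0.67, with 1.18 in females and 0.17 in males. The lysosomal cholesterol carrier Npc2 was at -0.48, with -0.925 in females and -0.03 in males. Of 19 cholesterol synthesis genes 3 were lower at an unadjusted p under 0.05, among them the mevalonate kinase Mvk (-0.54, without overlap), and the median was -0.01. Interferon response genes had a median of -0.15 over 19 (females -0.42, males 0.03). The 1 at an unadjusted p under 0.05 was the viral entry inhibitor Ifitm3. It was lower without overlap, at 15.5, 11.5, 19.2 and 24.2 RPKM in knockouts and 28.9, 29.1, 46.8 and 26.3 in tau wild types. Isg15 was higher without overlap, at 0.31 (0.24 in females, 0.38 in males). Of all genes tested, 4.78% had every knockout below and 2.88% every knockout above. The 11 inflammatory signalling genes had a median of -0.01.

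Astrocyte genes are divided here into reactive and resting ones. The 14 reactive astrocyte genes did not share 1 direction, with 8 lower and 6 higher and a median of -0.26 (females -0.185, males -0.065). At an unadjusted p under 0.05, 2 were lower, the protease inhibitor Serpina3n (-0.80) and the intermediate filament gene Vim (-0.42). Gfap, another intermediate filament gene, was at -0.46, with -1.62 in females and 0.70 in males. Of 16 resting astrocyte genes 2 were lower and 1 higher at that p, with a median of -0.42 in females and 0.065 in males. The folate enzyme Aldh1l1 was lower without overlap, at 6.23, 6.22, 6.46 and 6.87 RPKM in knockouts and 10.4, 10.1, 9.26 and 7.32 in tau wild types. The gap junction gene Gja1 was at 1.96 in females and -0.06 in males (adjusted p of the difference between the sexes 0.00933).

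Oligodendrocyte and myelin genes were higher in 12 of 19, with 4 at an unadjusted p under 0.05, none lower at that p, and a median of 0.17 (females 0.14, males 0.13). Mbp, the myelin basic protein, was at 277, 201, 332 and 240.2 RPKM in knockouts and 130.4, 119, 163 and 215 in tau wild types (log2 difference 0.75, SE 0.17, limma adjusted p = 0.172). Only knockout replicate 2 lay within the range of the tau wild types. The lineage factor Olig2 was at 29.4, 23.0, 25.2 and 26.6 and 15.9, 15.3, 22.6 and 18.4, without overlap. The fatty acid hydroxylase Fa2h was at 0.74, and the myelin regulator Myrf at 2.12 in females and 0.25 in males, a difference between the sexes that passed (adjusted p = 0.0168). The 10 precursor genes had a median of -0.02.

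Neuronal identity lists had medians near 0, and that of activity-induced genes was positive. Excitatory neuron genes had a median of 0.12 over 18, inhibitory neuron genes -0.12 over 15 and synapse genes -0.09 over 22. Within the synapse list 5 genes were higher and 5 lower at an unadjusted p under 0.05. In 5 all knockouts lay below all tau wild types, against 4.78% of all genes tested. Among them were the glutamate receptor subunit Grin1 (16.2, 12.9, 22.2 and 22.0 against 24.7, 37.3, 33.2 and 28.6 RPKM), Vamp2 (-0.42) and Syn1 (-0.42) of the synaptic vesicle. The layer marker Rasgrf2 was at -0.55, Neurod6 at 0.68 and the interneuron calcium buffer Calb2 at -1.28.

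Of 15 immediate early genes 13 were higher, 6 of them at an unadjusted p under 0.05 and none lower at that p, with a median of 0.36 (females 0.44, males 0.19). Bdnf, a growth factor released by active neurons, was at 14.2, 11.2, 10.9 and 11.7 RPKM in knockouts and 3.69, 4.31, 6.83 and 9.19 in tau wild types, without overlap (log2 difference 0.95, limma adjusted p = 0.172). The nuclear receptor Nr4a1 was at 42.6, 19.0, 12.2 and 24.1 and 0.813, 0.552, 9.62 and 16.5, and its difference was 4.14 in females and 0.42 in males (adjusted p = 0.0091). The transcription factor Egr1 was at 0.36. The 13 genes of neuronal injury and integrated stress had a median of -0.19 (females -0.35, males -0.01) and none at an unadjusted p under 0.05. Prnp, whose promoter is used in some tau transgenes, and Mapt, the mouse tau gene, were at 0.06 and -0.01.

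Of 18 endothelial and mural cell genes 4 were lower and 1 higher at an unadjusted p under 0.05 (median -0.07). The tight junction gene Cldn5 was at -0.54 and the pericyte gene Vtn at -0.70. The higher one was Rgs5, a mural cell gene like Vtn, at 0.68 (0.88 in females, 0.49 in males). In 3 of the 18 (Cldn5, Vtn and Ly6a) all knockouts lay below all tau wild types, against 4.78% of all genes tested.

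Markers of tissue that a cortical dissection can carry along varied between libraries. Choroid plexus genes were lower in 8 of 9 (median -0.57, females -0.40, males -1.24), none at an unadjusted p under 0.05. Ttr, the plexus carrier of thyroid hormone, was at 975, 113, 158 and 175 RPKM in knockouts and 207, 1616, 1739 and 245 in tau wild types, so that 1 knockout and 2 tau wild types were high. The summed level of the plexus list was 199.6 to 1148 RPKM in knockouts and 294 to 2017 in tau wild types. Meninges and fibroblast genes were lower in 9 of 10 (median -0.50), with the transporter Slc6a13 at -0.88 and the prostaglandin enzyme Ptgds at -0.81, and a summed level of 485 to 636 RPKM in knockouts and 475 to 1607 in tau wild types. Striatum genes were at a median of -0.775 in females and 0.39 in males, summed 522 to 2271 RPKM in knockouts and 1035 to 1833 in tau wild types, with differences between the sexes past the threshold for Ppp1r1b (adjusted p = 0.0424) and Rasd2 (0.00969). Hippocampus genes had a median of 0.002 over 5. No blood gene passed the filter and 4 of them were at 0 in all 8 libraries, and the 3 tested genes of infiltrating leukocytes had a median of -0.18. The part of such tissue in the other lists was not tested.

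**Figure D4:**
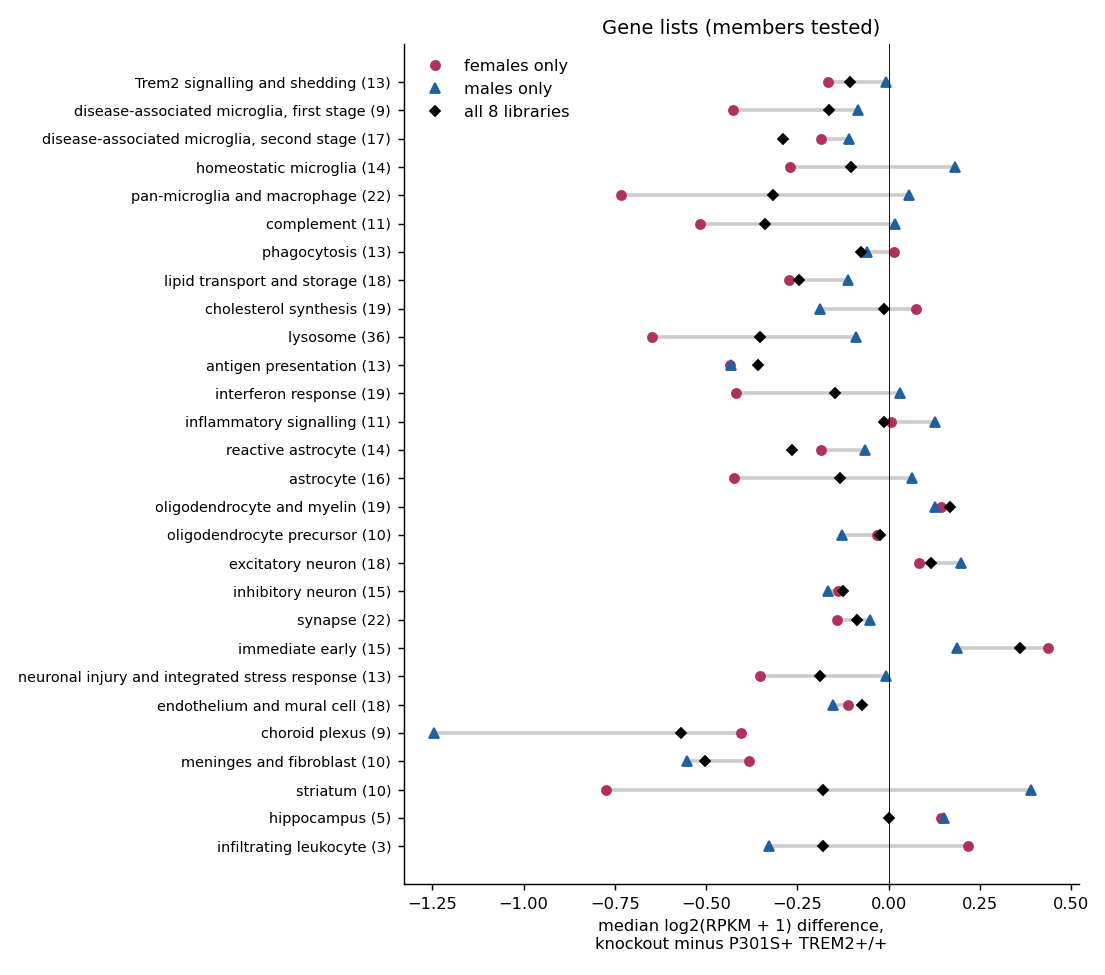
Median log2(RPKM + 1) difference, knockouts minus tau wild types, over the tested members of each list (number in brackets), for all 8 libraries (diamonds), females (circles) and males (triangles). Pan-microglia, complement and lysosome medians are negative in females and from -0.09 to 0.06 in males. Resting astrocyte, interferon response, neuronal injury and first-stage microglia medians take the same form (females -0.43 to -0.35, males -0.085 to 0.065). Antigen presentation, myelin and immediate early medians have the same sign in both sexes. So do those of other lists, among them lysosome, choroid plexus (females -0.40, males -1.24) and meninges (-0.38 and -0.55).

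The knockout effect differed between the sexes at an adjusted p under 0.05 in 437 genes, 3.65% of those tested, and in 420 of them the difference was more positive in females. The count was 195 without the filter on low values, and with 1 library left out it fell to 126 without knockout replicate 4, 205 without knockout replicate 2, and 202, 249, 287 and 264 without tau wild type replicates 1 to 4. The median absolute log2 difference over all genes was 0.32 in females and 0.149 in males. Across the 11980 genes, which are not independent replicates, the differences in the 2 sexes had a Pearson r of 0.23 and the same sign in 59.3%. In 418 of the 437 genes both female tau wild types lay below the other 6 libraries, and in 9 above them. Over all tested genes both lay outside the other 6 in 35.5%.

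The 6 genes with the smallest p for this difference show the form it took. Slc25a22, a mitochondrial glutamate carrier, was at 104, 91.6, 102 and 99.7 RPKM in knockouts and 4.94, 4.55, 50.5 and 71.4 in tau wild types, where replicates 1 and 2 are the females. Cox17, a copper chaperone of respiratory complex IV, was at 823, 839, 670.5 and 612 and 115, 108, 570.1 and 642. Prkci, an atypical protein kinase C, was at 36.3, 36.9, 42.5 and 38.1 and 1.97, 2.35, 27.0 and 31.3. In each the 2 female tau wild types alone were low. Gm561 (4.03, females minus males), the small nucleolar RNA host gene Snhg8 (3.32) and the proteasome subunit gene Shfm1 (2.71) behaved alike, and all 6 had a limma adjusted p of 0.000383.

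These same genes were low in a library outside the comparison. Control replicate 3, a female, was at 106, 99.9, 1.94 and 92.0 RPKM for Slc25a22 in the order of control replicates 1 to 4, and at 695, 664, 39.9 and 753 for Cox17. After this was seen it was counted over the set: control replicate 3 lay below the other 3 controls in 92.9% of the 437 genes, against 53.8% of all tested genes. Both heterozygote females lay below both heterozygote males in 36.8% of the 437 and in 31.7% of all tested genes. The 437 genes had a median length of 2455 bases, against 2936 for all tested genes. Sex, genotype and whatever sets these 3 libraries apart cannot be told apart with 2 mice in each cell of the design.

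**Figure D5:**
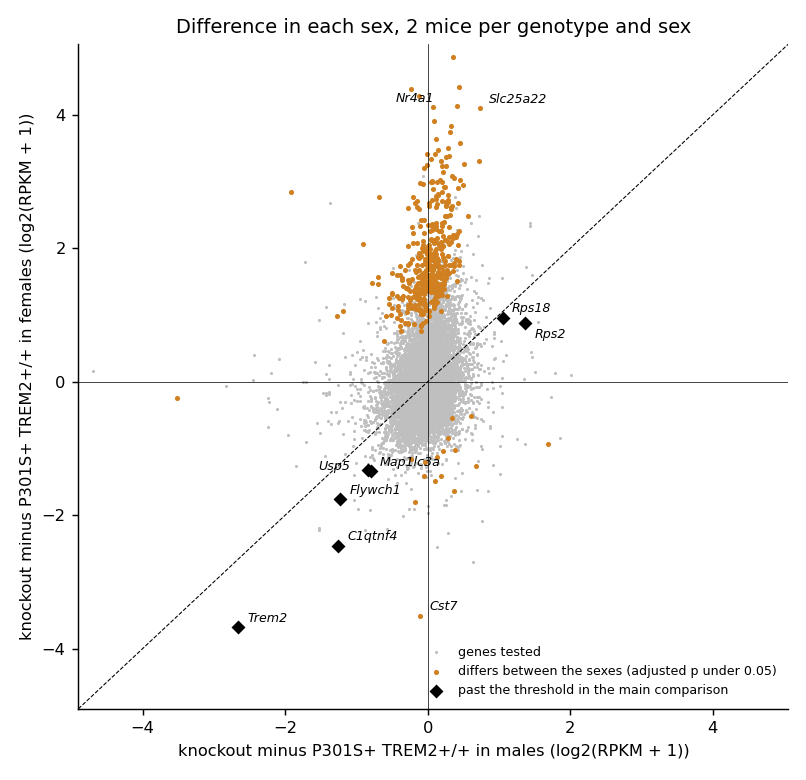
Log2(RPKM + 1) difference between knockouts and tau wild types in females (vertical) against males (horizontal), 2 mice per genotype and sex, for all 11980 genes (grey), the 437 genes that differed between the sexes (orange) and the 7 called genes (diamonds). Most orange genes lie high on the vertical axis and near 0 in males. The 7 called genes have the same sign on both axes, as genes without overlap must.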

How the data were processed

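Cortical RNA was made into 3' end libraries (Lexogen QuantSeq) and run on an Illumina HiSeq4000, per the labels' protocols. The submitters' processing notes name the tools STAR, HTSeq, edgeR and limma and the build mm10, without versions or roles. The deposited values, 1 file per library, are RPKM, a unit read from the values: they are whole multiples of 1 read for 100.0% of genes, with a tolerance of 0.0001 reads plus a relative 1e-06. Depth was summed from those reads. The use of strand in counting is not stated in the labels, so overlapping and antisense genes cannot be separated, and division by length does not suit 3' reads, so levels were compared between libraries and not between genes. In each file 1 blank line was dropped.

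Differences were tested with limma 3.58.1 (R 4.3.3, trend on) on log2(RPKM + 1), a pseudocount of 1, for genes averaging 1 RPKM or more, with genotype and sex as terms and 5 residual degrees of freedom, or with their interaction and 4. Benjamini-Hochberg adjustment ran over all 11980 genes, with a threshold of 0.05. The fit was run on simulated reads in which, apart from planted changes, all libraries shared the same gene proportions. No pair stood apart in them as the female tau wild types did, so they do not bear on that feature. No 2 libraries of a genotype matched within sampling noise. Reads were counted without molecular identifiers, so they are not independent molecules. The labels do not say how the mice were housed or bred, so p-values measure the spread between these mice.

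Members and gene lists were chosen with earlier results of these data known. Named genes are those past the threshold, the smallest p among separated groups up to 12 in each direction, up to 4 members of each list, neighbours of Trem2 and the 6 smallest p between the sexes. The text names part of these, 91 genes in the alternatives. Rsph1, H2-Ke6 and Enpp4 from the chromosome table and Psmb9 from the list of antigen presentation were added after their values were seen. So were the values of Olfml3, Tmem119, Csf1, Ank and Ly86 from the microglia lists and of Rgs5, Gfap and Isg15 from other lists. Positions are from GENCODE M21 on GRCm38 by symbol. The promoters are from RefSeq. Alternatives were other pseudocounts, filters, scalings, weights and covariates, all 16 libraries, voom on the recovered reads, each sex alone and each library left out. The removal of both female tau wild types was chosen after seeing the data.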

Additional observations from a re-analysis of the deposited data

Results flagged for a closer look

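Among the 91 genes in the alternatives and Psmb9, the knockout effect differed between females and males in 16 by limma's interaction test (adjusted p under 0.05). Of these, 6 (Gm561, Slc25a22, Snhg8, Prkci, Cox17 and Shfm1) were named because they had the smallest p in this test, and Psmb9 was named for its difference, so that their passing was given. The difference of the log2 differences, females minus males, was 4.03 for Gm561, 3.72 for Nr4a1, 3.37 for Slc25a22, 3.32 for Snhg8, 3.12 for Prkci, 2.81 for Cox17 and 2.71 for Shfm1. It was 2.02 for Gja1, 1.87 for Myrf, 1.86 for Lgmn and 1.22 for Psmb9. On the negative side it was -3.40 for Cst7, -1.63 for Fcer1g, -1.59 for Rasd2, -1.41 for Ppp1r1b and -1.20 for C1qtnf4. Each rests on 2 mice per genotype and sex, and on the same 2 female tau wild types.

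In 9 groups of 4 libraries, 1 library lay far from the other 3 (gap over range above Dixon's 95% critical value, which chance gives in about 1 of 20 groups, with 182 groups looked at). Among knockouts, replicate 4 was high in Trem2 (3.75 RPKM, others 1.44 to 1.71) and in Clec7a (1.24 RPKM, others 0.161 to 0.342), replicate 2 was low in Rhob (149.7) and high in Gpr34 (8.05), and replicate 1 was high in Ttr (975 RPKM, others 113 to 175). Among tau wild types, replicate 1 was high in H2-Aa (26.4) and Clec7a (5.24), and replicate 3 in Ifitm3 (46.8) and Vim (34.6).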

How the results depend on the processing

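Of 11980 genes, 2 passed as higher and 5 as lower. Without filter, without both female tau wild types, and in males alone 0 passed in either direction (2698, 479 and 547 genes at an unadjusted limma p under 0.05), and in females alone 1131 and 409. With all 16 libraries 0 were higher and 1, Trem2, lower. Without the sex term 1 was higher. Median-of-ratios scaling left 3 lower calls. Leaving out 1 library gave 0 to 1 higher and 0 to 4 lower calls. The other settings (pseudocounts, filter of 5, both kinds of weights, quantile normalization and voom) gave 2 higher and 5 or 6 lower. All 7 called genes kept their sign in all 22 alternatives, which the lack of overlap gives wherever libraries were only left out. They were past the threshold in 14 (Trem2), 13 (Flywch1), 10 (Usp5, Rps2 and Rps18) and 9 (C1qtnf4 and Map1lc3a) of them.

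The log2 difference of Trem2 was -3.17 without filter (adjusted p = 0.0503), -2.66 in males alone and without both female tau wild types, and -3.48 to -3.04 with 1 library left out. The 437 genes that differed between the sexes became 195 without filter, and 126 to 393 with 1 library left out. They were 485, 455, 463, 419, 379 and 292 with a pseudocount of 0.1 or 0.5, a filter of 5, array weights, median-of-ratios scaling and quantile normalization.

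Of the other 90 genes, 84 kept their sign throughout. In males alone, and so also without both female tau wild types, Gja1 was at -0.0602, Shfm1 at -0.118, Rasd2 at 0.0979, Ppp1r1b at 0.383 and Mapt at 0.11, and in females alone Prnp was at -0.15. Mapt, at -0.01, was also at 0.0118 under median-of-ratios scaling, at 0.0053 under quantile normalization, and from 0.016 to 0.0476 without tau wild type replicate 1 or 4 or knockout replicate 2 or 3. No paired analysis was possible because the labels number no replicates within a group. The replicate numbers used here follow accession order and tie no mouse to one of another group. Depth limits low genes such as Clec7a, which had 1 to 19 reads in knockouts.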
